A study of Oryza sativa Japonica Group with 6 samples.

Results

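Alpha-expansins of the rice anther were followed here through every probe set whose gene carries a symbol or synonym of the form EXPA plus a number, with a leading Os dropped. The rule found 16 probe sets for 14 genes, out of 57381 probe sets on the array, 17905 genes paired with a probe set of their own and 29 genes with such a name in the gene table; the other 15 genes had no probe set paired with them by that table and were not analysed here. The arrays were Affymetrix rice genome arrays, 1 per sample, and the values are the deposited signals on a linear scale. Total RNA came from mature anthers at anthesis of field-grown plants of a japonica variety, with 3 arrays from wild type and 3 from the dao mutant. DAO, the dioxygenase for auxin oxidation, converts the auxin indole-3-acetic acid into an inactive oxidised form, and the design sets mutant anthers against wild-type anthers to find transcripts that change. The titles call the samples biological replicates. Another line of the labels speaks of three-week-old seedlings, and of Epi-df for the samples otherwise labelled dao, which disagrees with the titles and the tissue fields. The sources used here do not give the lesion of the mutant, the number of plants per sample or any pooling.

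Expansins are secreted proteins that loosen the plant cell wall without cutting its polymers, by freeing the contacts between cellulose microfibrils and the glucans around them. They act best at acid pH, and auxin, which makes growing cells acidify their walls, promotes growth partly through them. Grasses have large families of alpha-expansins and beta-expansins. The former are best known from elongating organs such as coleoptiles, internodes and roots, while some grass beta-expansins are abundant allergens of pollen. In a flower that opens, walls extend in the filament and the pollen tube and are altered in the anther wall, so anther RNA can hold transcripts from several such tissues. In these bulk samples, fewer cells of a type and less RNA per cell cannot be told apart.

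On the arrays as labelled, DAO itself read 480.0, 883 and 686 in wild type and 1551, 1168 and 1391 in dao, so that the signal was higher in the samples labelled dao (log2 1.04, limma adjusted p = 0.0251); the place of the probes relative to the lesion is unknown, and this value does not check the labels. The median signal was 8.82 to 9.33 over the 6 arrays. Of the tissue markers, the pollen genes EXPB9 and EXPB10 gave 6457 to 13036 in wild type and 5205 to 11539.7 in dao, and 4 of 4 stamen identity markers were measured. Of the carpel list, DL gave 11.7 to 16.7, MADS58 490 to 744, MADS13 5.49 to 29.4 and MADS21 3.02 to 5.73 over the 6 arrays. In both groups the array numbered 3 lay between the other two in 52.5% (wild type) and 55.2% (dao) of the probe sets tested. Without both arrays numbered 3, limma called 0 probe sets in the whole table, so all p-values below depend on those arrays and are too small if the arrays numbered 3 are not independent samples.

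Of the 16 probe sets, 10, for 10 genes, had a mean signal above the filter used for testing, a signal of 6.33. The other 6 were dim on all arrays, from 3.14 to 5.34. A probe set was called when its limma adjusted p was 0.05 or less and the difference at least 2-fold. No alpha-expansin was called, against 3.37% of all probe sets tested (2.03% higher and 1.34% lower in dao). At an unadjusted p under 0.05 there were 5 of 10, against 26.4% of all, and at an adjusted p of 0.05 without the 2-fold limit there was 1, EXPA26, which was lower, against 9.89% of all (6.53% higher and 3.35% lower). Signals of wild type and dao did not overlap in 6 of the 10, with 4 higher and 2 lower in dao, where 31.4% of all probe sets tested showed no overlap (17.9% higher and 13.5% lower). As a median, the members differed by log2 0.17 and all probe sets tested by -0.01. For 7 of the 10 the 95% interval of the difference lay within 2-fold in both directions. Since probes differ in how strongly they bind, signals are set against each other only within a probe set.

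**Figure D1:**
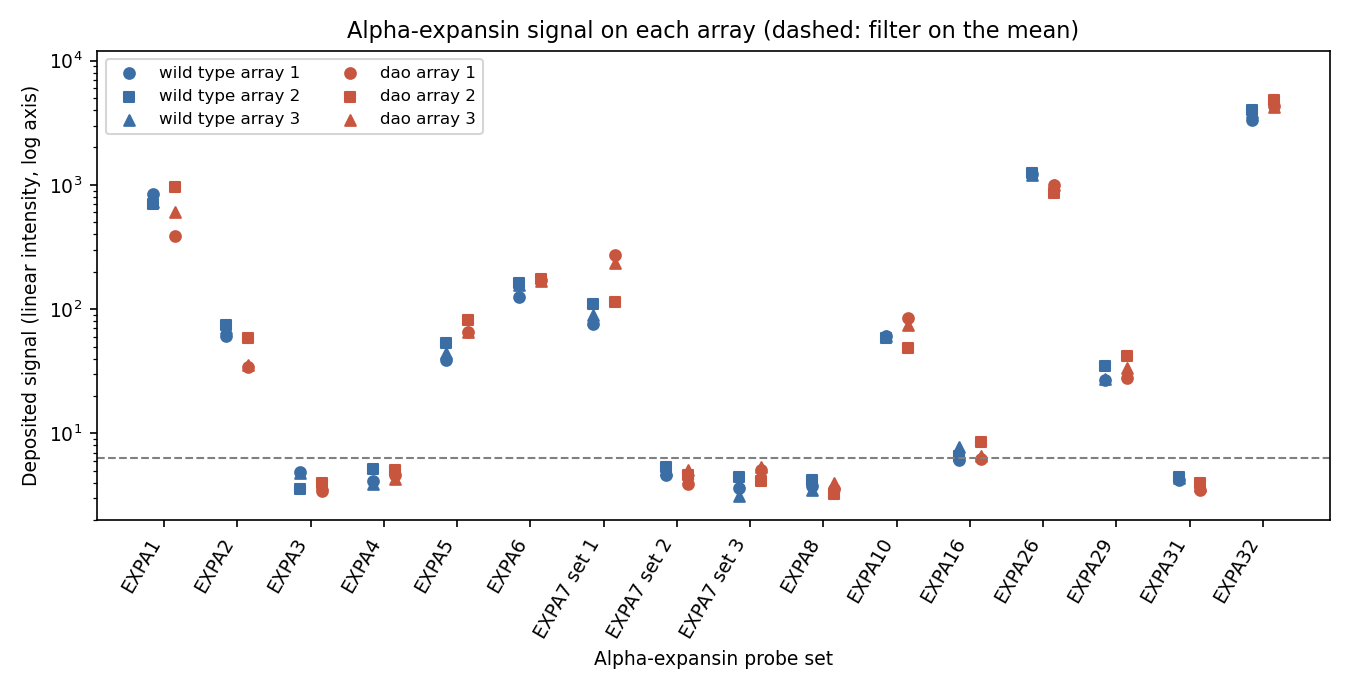
Deposited signal (linear intensity on a log axis) of each of the 16 alpha-expansin probe sets on each of the 3 wild-type arrays (blue) and 3 dao arrays (red), with marker shapes for the array numbers. The dashed line is the filter on the mean signal, 6.33; EXPA3, EXPA4, EXPA8, EXPA31 and sets 2 and 3 of EXPA7 lie under it on every array.

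EXPA7 had the largest difference among the tested members, in a gene whose overexpression has been linked to salt tolerance in rice. It has 3 probe sets. The first read 76.2, 111 and 90.3 in wild type and 274, 115 and 237 in dao, in the order of arrays 1, 2 and 3, as throughout. All dao arrays lay above all wild-type arrays, but dao array 2 exceeded the highest wild-type array only slightly. The wild-type signal averaged 92.4 ± 17.4 (SD, n = 3) and the dao signal 209 ± 83.0 (SD, n = 3), a 2.14-fold difference (log2 1.10, SE 0.31, 95% interval 0.37 to 1.83), and it missed the threshold (limma adjusted p = 0.0675). The outcome moved with single arrays in both directions. Without dao array 2 the difference was log2 1.48 with a limma adjusted p of 0.00615, past both limits, and without both arrays numbered 2 it was log2 1.62 with 0.000757. Without dao array 1 it was log2 0.85 with an adjusted p of 0.197, and without both arrays numbered 1 log2 0.72 with 0.230, both under 2-fold.

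The other probe sets of EXPA7 did not carry the same difference. The second read 4.66, 5.34 and 5.12 in wild type and 3.92, 4.65 and 5.04 in dao, with overlap. The third, which the probe table lists with the same source sequence as the first, read 3.62, 4.43 and 3.14 in wild type and 5.05, 4.15 and 5.33 in dao, also with overlap. Both were under the filter; tested without a filter they stood at log2 -0.16 (limma adjusted p = 0.556) and 0.38 (limma adjusted p = 0.198). The mean of the 3 probe sets gave EXPA7 a difference of log2 0.44 (limma adjusted p = 0.138). The difference of EXPA7 thus rests on 1 of its 3 probe sets, the only one with signal above the filter.

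EXPA5 was higher in dao on every array. It read 39.0, 53.2 and 44.3 in wild type and 65.1, 82.5 and 65.5 in dao. The groups did not overlap, and here dao array 2 was the highest. The difference was 1.56-fold (log2 0.64, SE 0.17, 95% interval 0.25 to 1.04), just short of the limit on the adjusted p (0.0541 in limma) and of 2-fold. The adjusted p of EXPA5 passed in 5 of 18 settings, and 2-fold was reached in none.

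EXPA32, whose probe set was bright on every array, read 3344, 4018 and 3886 in wild type and 4285, 4830.0 and 4241 in dao, without overlap, a log2 difference of 0.25 (95% interval 0.03 to 0.47, limma adjusted p = 0.144). EXPA6 read 124, 161 and 158 in wild type and 171, 174 and 168 in dao. Its groups did not overlap either, and its dao arrays lay within a narrow range. The difference was log2 0.22 with an interval that includes 0 (-0.09 to 0.53, limma adjusted p = 0.349), and it was log2 0.10 without wild-type array 1, the lowest (0.582).

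EXPA26 was the single member with an adjusted p under 0.05, and it was lower in dao. It read 1220.4, 1256 and 1207 in wild type and 989, 861 and 1000.5 in dao. The 3 wild-type arrays were within 1.04-fold of each other and all dao arrays lay below them. The wild-type signal averaged 1228 ± 25.5 (SD, n = 3) and the dao signal 950.4 ± 77.4 (SD, n = 3), a log2 difference of -0.37 (SE 0.09, 95% interval -0.59 to -0.16, limma adjusted p = 0.0436). This is well under 2-fold, and the adjusted p passed in 6 of 18 settings, with a range of 0.0302 to 0.486. It was lost when any one array was left out.

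EXPA2 and EXPA1 were among the first alpha-expansins described in rice. EXPA2 read 60.3, 74.2 and 70.2 in wild type and 34.1, 58.6 and 35.6 in dao. Dao arrays 1 and 3 were far below the wild-type range and dao array 2 just below it. The log2 difference was -0.71 (SE 0.22, 95% interval -1.23 to -0.19, limma adjusted p = 0.0875), and without dao array 2 it was -0.96 with an adjusted p of 0.0138, still under 2-fold. With the replicate number as a block its adjusted p was 0.0475.

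EXPA1 read 850.1, 707 and 722 in wild type and 391, 965 and 607 in dao. The dao arrays spanned 2.47-fold, from below to above the whole wild-type range. The log2 difference was -0.31 (SE 0.29, 95% interval -0.97 to 0.35, limma adjusted p = 0.550), and it turned to 0.02 without dao array 1 and was -0.64 without dao array 2. The dao arrays thus disagree on the direction of EXPA1.

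**Figure D2:**
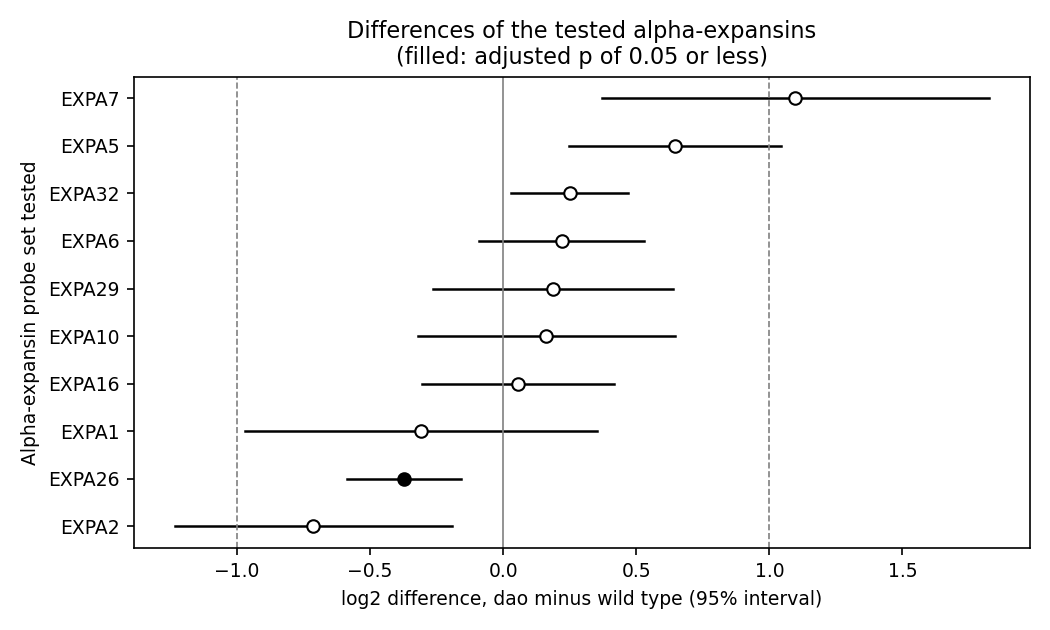
Log2 difference (dao minus wild type, x axis) with its 95% interval for each of the 10 tested alpha-expansin probe sets, 3 arrays per group; dashed lines mark 2-fold, and filled points have an adjusted p of 0.05 or less. EXPA26 is the only filled point, at -0.37, and EXPA7 lies farthest right at 1.10 with the widest interval.

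EXPA10, EXPA29 and EXPA16 differed by little on average. EXPA10, which is induced by aluminium in rice roots, read 61.2, 58.8 and 61.2 in wild type, the values of arrays 1 and 3 being identical as deposited, and 84.6, 48.8 and 74.8 in dao. Its wild-type arrays lay within the range of the dao arrays, 1 of which was below and 2 of which were above them (log2 0.16, 95% interval -0.32 to 0.64, limma adjusted p = 0.675). Its difference was log2 0.00013 without dao array 1 and 0.40 without dao array 2. EXPA29 read 27.1, 35.2 and 27.6 in wild type and 27.9, 41.7 and 33.4 in dao (log2 0.19, 95% interval -0.26 to 0.64, limma adjusted p = 0.598; log2 0.04 without dao array 2 and 0.33 without dao array 1). EXPA16, with signals from 6.13 to 8.56 close to the filter, stood at log2 0.06 (95% interval -0.31 to 0.42, limma adjusted p = 0.859; log2 -0.08 without dao array 2). The groups of all 3 overlapped.

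Among the members with all signals under the filter were EXPA4, which is tied to internode elongation in submerged deepwater rice, and EXPA8, which is tied to root growth. Signals of EXPA4 were 3.90 to 5.17 over the 6 arrays and those of EXPA8 3.26 to 4.24, with overlap of the groups in both. EXPA3 had 3.47 to 4.87, also with overlap. EXPA31 read 4.21, 4.43 and 4.34 in wild type and 3.49, 3.96 and 3.81 in dao, without overlap, at a log2 difference of -0.21 when tested without a filter (limma adjusted p = 0.260). Detection calls were not used here, so whether these genes have any transcript in the anther cannot be said from the signals.

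The spread among arrays was larger in dao than in wild type for 7 of the 10 tested members, against 45.5% of all probe sets tested. Within wild type the highest array exceeded the lowest by 1.04-fold to 1.46-fold over the members, and within dao by 1.04-fold to 2.47-fold, with the widest ranges in EXPA1 and EXPA7. Relative to the wild-type mean, dao arrays 1, 2 and 3 stood at log2 1.58, 0.33 and 1.37 for EXPA7 and at -0.99, -0.21 and -0.93 for EXPA2. They stood at -0.95, 0.35 and -0.32 for EXPA1 and at 0.49, -0.31 and 0.31 for EXPA10. In 9 of the 10 members, all but EXPA6, dao array 2 was the array set off from the other dao arrays by the larger gap, which was so in 44.2% of all probe sets tested. In EXPA7 and EXPA2 it lay nearer to the wild-type mean than dao arrays 1 and 3 did, and in EXPA10 on the other side of that mean. In EXPA5, EXPA32, EXPA26, EXPA29 and EXPA16 dao array 2 lay farthest from the wild-type mean, at log2 0.87, 0.37, -0.51, 0.49 and 0.33. So it did in EXPA6, at 0.25. Dao array 2 was the dao array nearest to that mean in 3 of the 10 members, against 46.1% of all probe sets tested. In EXPA1 dao arrays 1 and 3 were nearly as far from each other (log2 0.64) as dao arrays 2 and 3 (0.67).

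Some markers of other cells were, like EXPA7, highest on dao array 1 and lowest of the dao arrays on array 2. Others were not. Of 7 tapetum and anther wall markers 6 were measured, and 0 of the 5 tested probe sets were called. Their summed signal was 1904 to 1926 in wild type and 5458, 1839 and 4438 in dao, so that in the sum dao array 2 was just below wild type and the others were above it. Most of this sum came from the probe set of RTS, a gene of the tapetum, which read 1684, 1629 and 1676 in wild type and 4684, 1541 and 3822 in dao. C6, TDR and EAT1 were also highest on dao array 1 and lowest of the dao arrays on array 2. On dao array 2, C6 (149) was still above its wild-type arrays (87.6 to 125). There TDR lay within its wild-type range, and RTS and EAT1 just below theirs. PTC1 had the same order of dao arrays but stayed near the wild-type mean. It stood at log2 -0.03, -0.15 and -0.08 against that mean on dao arrays 1, 2 and 3. Its signals were 7.15 to 8.93, close to the filter. CYP703A3 did not have this order, but was under the filter at 3.90 to 4.48. PTC1 and CYP703A3 are thus dim probe sets, in which a pattern could be missed. In TDR (log2 0.71, 0.07 and 0.31) and EAT1 (1.07, -0.30 and 0.26) dao array 1 was set off by the larger gap. In EXPA7 that was dao array 2. Of 7 leaf photosynthesis markers 2 were measured, in 6 probe sets, with a sum of 2724, 1313 and 1780 in wild type and 4205, 1099.6 and 3094 in dao, which overlap. Both probe sets of CAB2R were also highest on dao array 1 and lowest on dao array 2 (1818, 653 and 1327 in the brighter). So was the brightest of RBCS (1752, 197 and 1276), though not every RBCS probe set. The brightest of RBCS also varied within wild type (1324, 336 and 671). For pistil and carpel markers, 4 of 4 measured, the sum ranged from 515 to 766 in wild type and from 761 to 787 in dao. Of the 3 tested probe sets 1, that of the ovule gene MADS13, was called higher (log2 2.02, limma adjusted p = 0.00212). It read 5.49, 6.58 and 6.47 in wild type and 29.4, 20.4 and 26.1 in dao. The wild-type mean of MADS13 (log2 2.62) lay under the filter (log2 2.66), which it passed only through the dao arrays. The stamen identity markers, in 5 probe sets, summed to 7516 to 7771 in wild type and 9671 to 10687 in dao, without overlap. These are 5 genes, since the name MADS2 matched more than 1 gene. None of the 5 was called, but 3 passed on the adjusted p, all higher. They were MADS4 (log2 0.79, limma adjusted p = 0.00326), MADS3 (0.78, 0.0103) and 1 gene matched as MADS2 (0.49, 0.0115). The other gene matched as MADS2 stood at log2 0.34 (limma adjusted p = 0.0975). In the stamen sum dao array 2 (9671) stayed above every wild-type array. The pistil sums of the groups overlapped only through dao array 3 (761), with wild type reaching 766 and dao array 2 above it at 783. Most of the pistil sum was MADS58, which read 743 on dao array 2 and 490 to 744 in wild type. Of 5 pollen markers 2 were measured, EXPB9 and EXPB10, with a sum of 18963 to 21153 in wild type and 16447 to 18227 in dao. The sum was lower in dao without overlap, as was EXPB9. The groups of EXPB10 overlapped, at 6457 to 8471 in wild type and 5205 to 6687 in dao. Neither gene passed (limma adjusted p = 0.105 and 0.284). The part of these cell types in the differences of EXPA7, EXPA2, EXPA1 and EXPA26 was not tested.

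**Figure D3:**
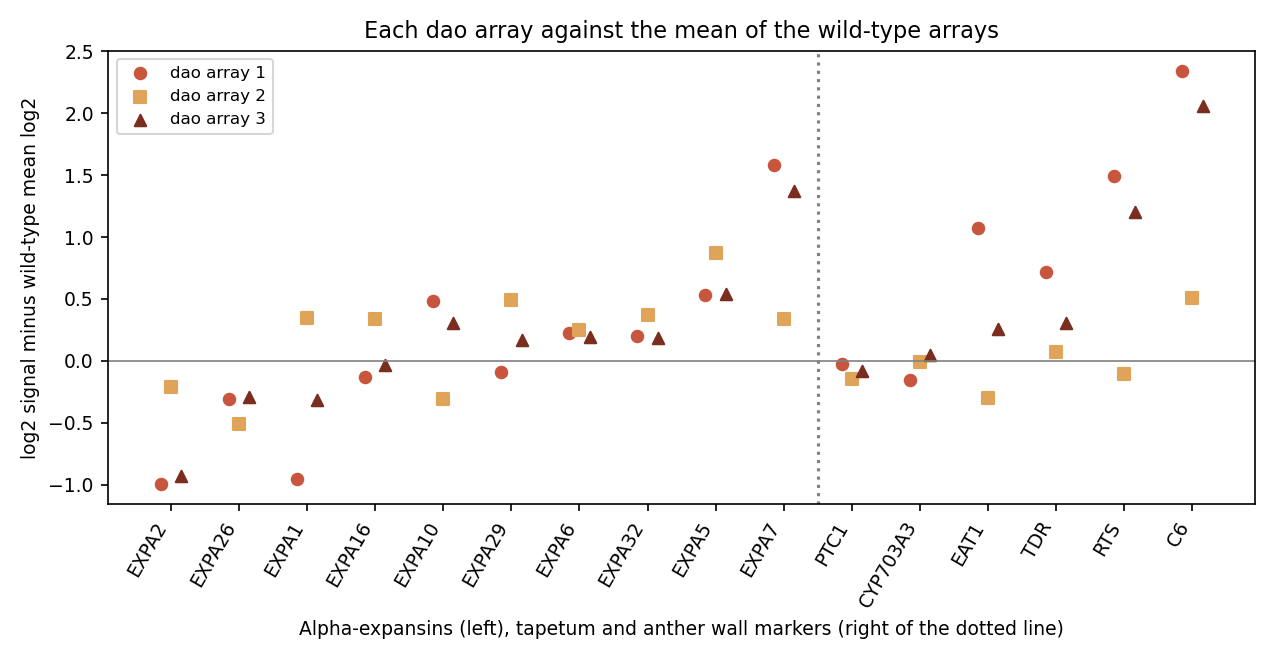
Log2 signal of each dao array minus the mean log2 signal of the 3 wild-type arrays (y axis) for the 10 tested alpha-expansins and, right of the dotted line, the 6 measured tapetum and anther wall markers. Dao array 2 (square) lies apart from dao arrays 1 and 3 toward the wild-type mean in EXPA2 and EXPA7, as in RTS and C6. In EXPA5, EXPA26 and EXPA32 it lies apart in the direction away from that mean. PTC1, with signals close to the filter, and CYP703A3, under it, stay near 0 on all dao arrays.

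**Figure D4:**
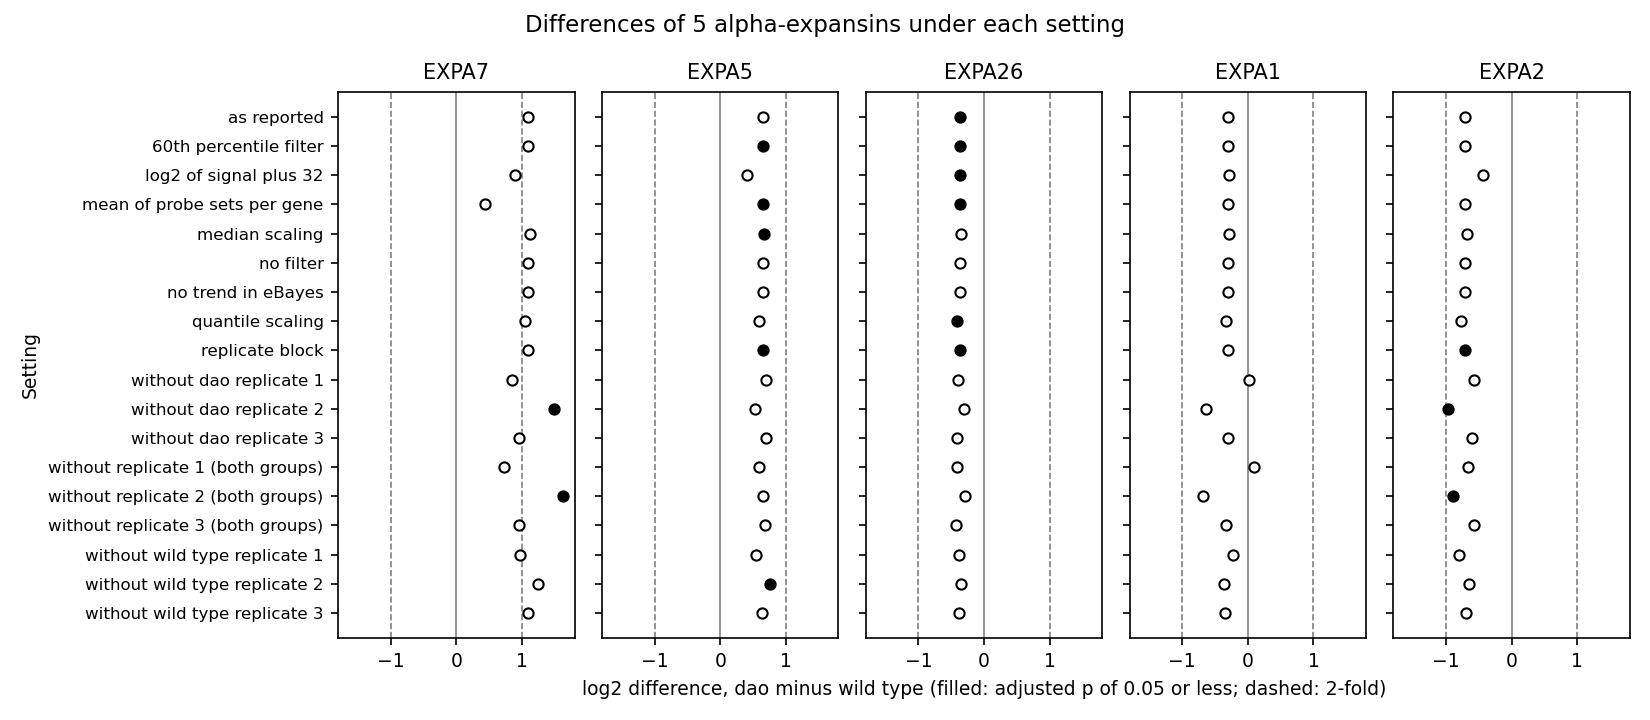
Log2 difference (dao minus wild type, x axes) of 5 alpha-expansins under each of 18 settings (rows), filled where the adjusted p was 0.05 or less, with dashed lines at 2-fold. EXPA7 is past both limits in 2 settings, those without dao array 2, and EXPA1 changes sign without dao array 1.

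Other genes of wall loosening and wall building were taken from lists found by symbol. Of 10 tested beta-expansin probe sets 0 were called and 2 passed on the adjusted p alone, both higher in dao, with a list median of log2 0.02. EXPB6 and EXPB2 stood at log2 0.96 (limma adjusted p = 0.0160) and 0.86 (0.0281), and EXPB3 at 0.43 (0.0590). Among the 4 tested expansin-like probe sets, EXLA1 alone passed on the adjusted p (log2 0.72, limma adjusted p = 0.0181). EXLA2 stood at -0.48 (limma adjusted p = 0.0913) in 1 probe set and at -0.16 (0.689) in the other, and EXLA3 at 0.12 (0.642). The list median was -0.02.

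The 1 xyloglucan transferase found, XTH8, whose enzyme class cuts and rejoins xyloglucan, read 82.9, 134 and 108 in wild type and 432, 137 and 307 in dao, with dao array 2 just above wild type as in EXPA7 (log2 1.31, limma adjusted p = 0.0756). Of 11 tested probe sets of endoglucanases, which cut glucan chains, 2 rose, 0 fell and 9 were not called, with a median of log2 0.68. GLU10 rose by 1.25 on the log2 scale (limma adjusted p = 0.0182) and GLU1, named after its value was seen, by 1.02 (0.0214), while GLU2 stood at 0.72 (0.0183). In the other direction GLU13 was lower at -0.78 (0.0246, passing on the adjusted p alone) and GLU8 at -0.91 (0.0777), both without overlap and also named after their values were seen. The symbol pattern for endoglucanases also took in 13 probe sets of glutelins and other genes, of which 7 were tested and 0 were called. Among these, 1 probe set of GLUP3 stood at log2 0.93 (limma adjusted p = 0.0114). Its other probe sets stood at 0.40 (0.257), 0.03 (0.907) and, under the filter, -0.11. Of 11 tested probe sets of cellulose synthases 0 were called, with a median of log2 0.09, CESA5 at 0.60 (0.0469), CESA6 at 1.01 (0.0873) and CESA9 at 0.44 (0.0989). CESA6 read 50.7, 72.6 and 64.6 in wild type and 191, 75.8 and 133 in dao. Its dao array 2 was just above wild type, as in XTH8. The pattern for plasma membrane proton pumps, which acidify the wall, found only OSA15, a photosystem gene, at log2 0.48 (0.0437) and -0.22 (0.467), so the pumps were not analysed here. Whether the alpha-expansins differ from these lists was not tested.

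**Figure D5:**
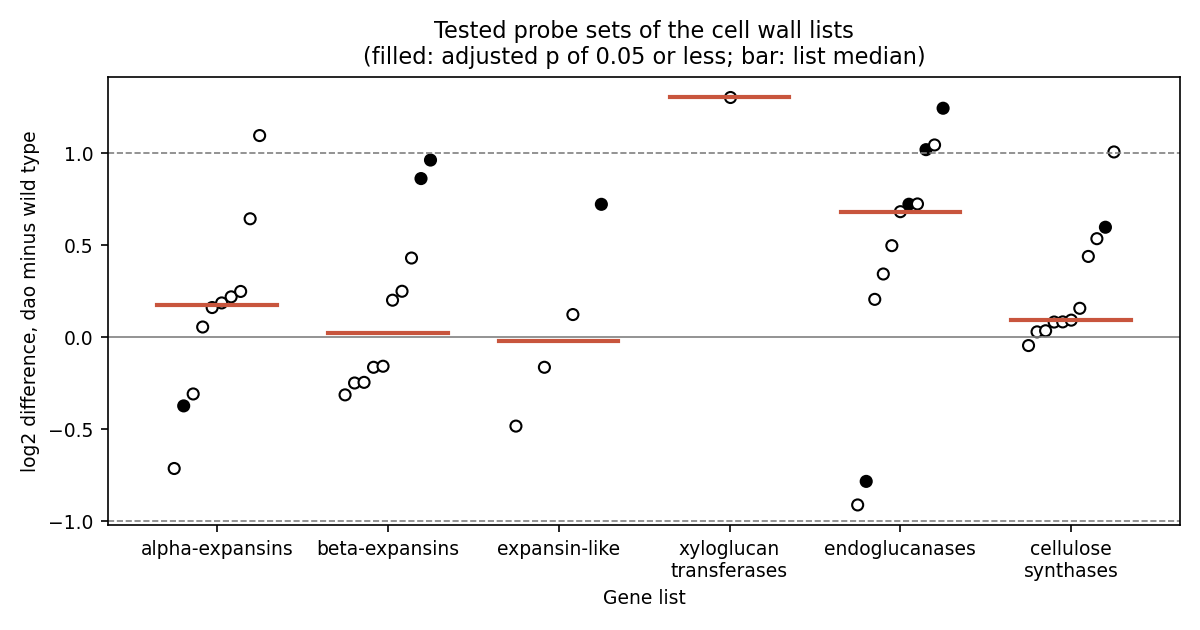
Log2 difference (dao minus wild type, y axis) of each tested probe set of the alpha-expansins and of 5 other cell wall lists, with the list median as a bar, dashed lines at 2-fold and filled points at an adjusted p of 0.05 or less. The median is 0.17 for alpha-expansins and 0.68 for endoglucanases, whose 2 filled points above the upper dashed line are GLU10 and GLU1.

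In the order of genes in the assembly used for names, EXPA12, EXPA25, EXPA15, EXPA18, EXPA19 and EXPA20 form a run of 6 adjacent genes, EXPA8 lies beside EXPA9, and EXPA3 beside EXPA33. None of the run of 6, and 1 gene of each of the other adjacent pairs, had a probe set here. Thus no 2 members with a probe set lie side by side, and 0 of the 16 probe sets were paired with more than 1 gene by the probe table.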

How the data were processed

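The authors deposited linear intensities, 1 for each probe set on each array. The submitters' processing notes name MAS5, with no version; 7.81% to 9.32% of an array's values recur exactly on another array, which is unusual for signals computed array by array, so the method behind the intensities is in doubt; the sources used here do not give the background correction or the scaling. Groups and replicate numbers come from the titles. Members and lists were chosen with earlier results of these data known. Genes were named through the platform's probe table and the RefSeq names of assembly ASM3414082v1, which also gave gene order; 22436 probe sets had 1 gene. The 123 control probe sets and those whose mean log2 signal fell below percentile 40 were left out, leaving 34355 tested with limma 3.58.1 in R 4.3.3 (log2 signal, group as the only term, eBayes with a trend, 2-sided, Benjamini-Hochberg over all tested). The fit was tested on simulated data. Intervals are 95%. The 2-fold limit is that of the series' design text. Named in full were members with an adjusted p of 0.05, the 8 with the smallest adjusted p and those with several probe sets, and the 3 smallest adjusted p per wall list. The labels do not state that the replicate numbers pair samples, so the numbers were not taken as pairs in the main fit. Deviations of same-numbered arrays correlated at 0.25, 0.18 and 0.09, and those of differently numbered arrays at -0.23 to 0.13. Pairing is thus not excluded, and a fit with the number as a block is among the alternatives. The alternatives were other filters, scalings, offsets and fold limits, no trend, a replicate block, gene means and arrays left out. The number of arrays limits the precision. No sequences were used here.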

Additional observations from a re-analysis of the deposited data

How the results depend on the processing

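The count of called alpha-expansins was 0 under every alternative except those without dao array 2, and ranged from 0 to 1 over the fits that left out 1 or 2 arrays; the 1 was EXPA7. The count with an adjusted p of 0.05 or less was 1 as reported, 2 with the 60th percentile filter, 2 with gene means, 0 without a filter, 0 without a trend and 0 to 2 with arrays left out. Median scaling also gave 1, but this was EXPA5 (limma adjusted p = 0.0447) and not EXPA26 (0.0695). With the replicate number as a block the count was 3 (EXPA2, EXPA5 and EXPA26), with 1136 probe sets called in the whole table against 1157. Over the whole table the count was 405 with log2 of the signal plus 32, 527 with gene means (genes, not probe sets), 2838 with a 1.5-fold limit and 0 to 2222 with arrays left out. For the cell wall lists together it was 2 as reported, 0 with log2 of the signal plus 32, 1 with quantile scaling, 9 with a 1.5-fold limit and 0 to 8 with arrays left out. EXPA1 turned to log2 0.02 without dao array 1 and 0.10 without both arrays numbered 1 (-0.69 to 0.10 with arrays left out). EXPA16 turned to -0.08 without dao array 2, -0.10 without both arrays numbered 2 and -0.02 without wild-type array 1 (-0.10 to 0.19 with arrays left out). The other 8 tested members kept their sign in every setting, though EXPA10 ranged from 0.00013 to 0.40, EXPA29 from 0.04 to 0.33, EXPA6 from 0.10 to 0.29 and EXPA7 from 0.44 to 1.62. The causes were not tested. Signals near the filter, as for EXPA16, and the 6 dim probe sets limit what could be measured.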
